A study of Homo sapiens with 4 samples.

Results

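The S100, small proline-rich (SPRR) and late cornified envelope (LCE) genes, with 7 further genes of the cornified envelope, were examined in MCF10A cells overexpressing the heat shock transcription factor HSF1. The members were all genes whose symbol begins with S100 and a letter, with SPRR, or with LCE and a digit, plus IVL, TGM1, FLG, LOR (now LORICRIN), CNFN, PI3 and KRTDAP, with 1 pseudogene left out. This gave 56 of the 63856 genes in the count table, made up of 20 S100 genes, 10 SPRR genes, 18 LCE genes, the 7 named genes and S100PBP. The last of these encodes an S100P-binding protein and is not itself an S100 protein. The rule used names and no measured value, but the members were chosen with earlier results of these data known.

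S100 proteins are small calcium-binding proteins with paired EF hands. They act inside cells on partners such as annexins and the cytoskeleton, and several are released as antimicrobial or inflammatory signals. In stratified epithelia such as the epidermis, differentiating cells build a cornified envelope under the plasma membrane, in which transglutaminases cross-link involucrin, loricrin, SPRR and LCE proteins and elafin into an insoluble shell. Most S100 genes and the SPRR, LCE, involucrin, loricrin and filaggrin genes lie side by side on the long arm of chromosome 1, in a region known as the epidermal differentiation complex.

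MCF10A is a non-tumorigenic human mammary epithelial line. RNA-seq libraries were made from unmodified cells (WT) and from cells transduced with a lentivirus carrying HSF1 cDNA in the pLVX-Puro vector and selected with puromycin (HSF1-pLVX), with 2 replicates of each. Both variants share the parental line and the growth medium, DMEM/F12 with horse serum, insulin, hydrocortisone, EGF and, per the labels, cholera toxin. Nothing in the sources used here describes the HSF1-pLVX cells as a single clone, and cells with the empty vector were not analysed here, so HSF1 cannot be told apart from transduction and selection. The libraries held between 18688109 and 24184285 counts. HSF1 itself was at 200.4 and 189 CPM (counts scaled to a common library size with TMM factors) in the WT libraries and at 982 and 999 in the HSF1-pLVX libraries, a log2 fold change of 2.35 (SE 0.148). All log2 fold changes below are HSF1-pLVX minus WT, from edgeR's quasi-likelihood test, and a gene was called at a Benjamini-Hochberg adjusted p of 0.05 over 15830 tested genes. The study calls the replicates biological, and neither it nor the labels say whether they were separate cultures or transductions, so the p-values refer to these libraries only. The test took replicate number as a block and used a spread shared across genes. The smallest p-values therefore do not measure a gene's own spread between libraries.

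The labelled cell type was checked against markers. The 10 markers of mammary and stratified epithelium were all detected and summed to 19913 and 19548 CPM in WT and to 9170 and 9718 CPM in HSF1-pLVX cells, where 7 were called lower and 3 (KRT5, TP63 and EGFR) higher. Of 9 leukocyte markers, PTPRC, FCGR3B and TYROBP were at 0 in every library and 7 of the 9 were under 1 CPM in every library. The leukocyte sum nevertheless rose from 1.81 and 1.45 CPM to 61.1 and 85.7 CPM, through CD14 (1.17 and 0.538 against 58.6 and 83.2 CPM) and ITGAM (0.32 and 0.323 against 2.19 and 2.06 CPM). Fibroblast markers summed to 7.56 and 10.7 CPM in WT and to 15.0 and 13.9 CPM in HSF1-pLVX cells, and endothelial and melanocyte or glial markers to between 0.484 and 5.18 CPM. Of the 7 fibroblast markers 5 were under 1 CPM in every library. The 2 that were tested differed, 1 called higher (log2 fold change 5.17) and 1 not called (0.20). Their median was 2.69, or 2.43 with a variant at the floor set at 3 counts per library. In bulk libraries such as these, fewer cells of a type and less RNA per cell cannot be told apart.

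The members moved in both directions. Of the 56, 30 passed the filter on low counts, 17 of these were called higher and 11 lower in HSF1-pLVX cells, and S100A6 and TGM1 were not called. Across all tested genes 65.1% were called, 32.5% higher and 32.7% lower. At 2-fold or more, 14 members were called higher and 6 lower, against 14.9% and 14.0% of all tested genes (29.0% in either direction). The median log2 fold change of the 30 tested members was 0.90, against 0.02 for all tested genes. In 28 of the 30 the CPM of the 2 variants did not overlap, which was so for 83.1% of all tested genes. By family, 10 of 15 tested S100 genes were higher and 4 lower, whereas 3 of 7 tested SPRR genes were higher and 4 lower, and of the 5 other tested envelope genes 1 was higher and 3 lower. Without the SPRR2, LCE and S100A7 genes, groups in which some members share sequence with a neighbour, 11 members were called higher and 9 lower. Without HSF1-pLVX replicate 1 the number called lower was 7.

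**Figure D1:**
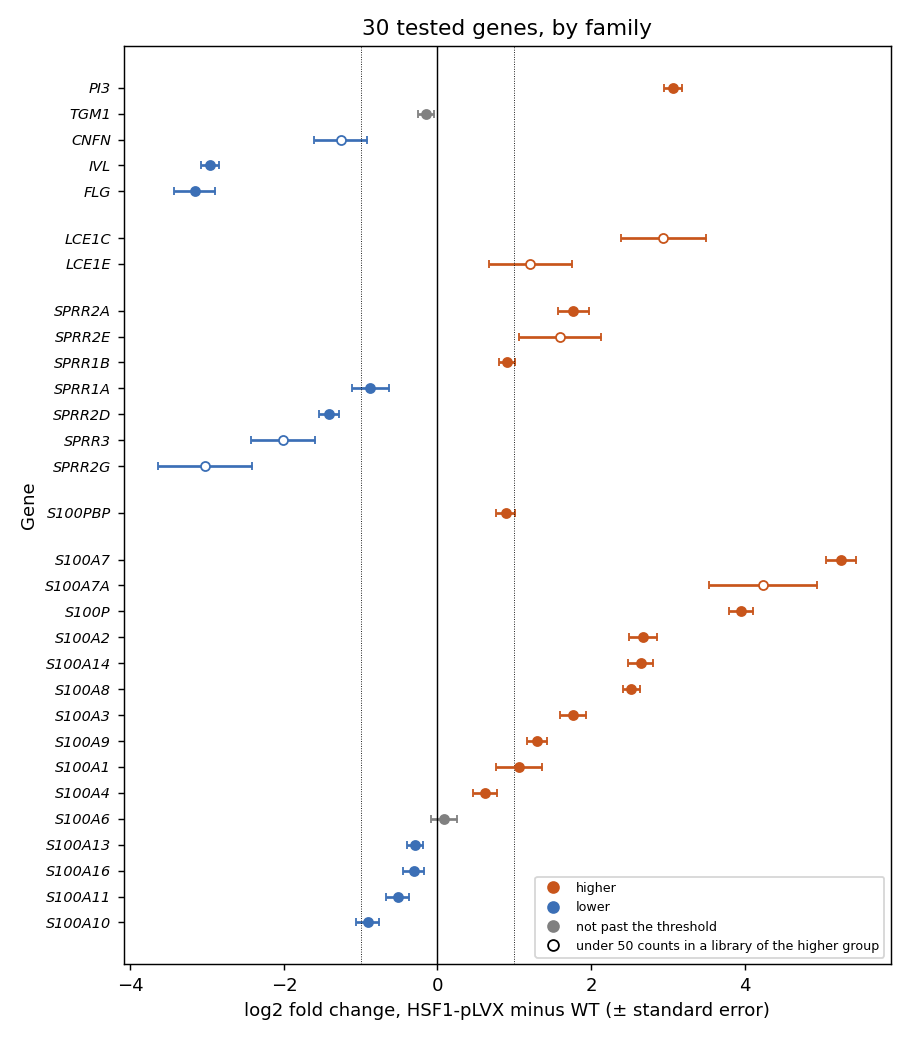
Log2 fold change (HSF1-pLVX minus WT, x axis) with its standard error for each of the 30 tested members (y axis), grouped by family, with dotted lines at a 2-fold change and open circles for members under 50 counts in a library of the higher variant. S100A7, at 5.25, lies farthest to the right and FLG, at -3.16, farthest to the left, while S100A6 and TGM1 lie near 0.

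Among the S100 genes, the largest rise was in S100A7, which encodes psoriasin, an antimicrobial protein of inflamed epidermis. S100A7 held 16 and 17 counts in the WT libraries and 784 and 727 in the HSF1-pLVX libraries, or 0.852 and 0.915 against 31.2 and 36.6 CPM. Its log2 fold change was 5.25 (SE 0.195, adjusted p = 3.66e-153), a 38.1-fold difference. The same test without the replicate block gave an adjusted p of 1.66e-11. The low WT libraries lay close together and far from both HSF1-pLVX libraries. The neighbouring paralog S100A7A held 2 and 0 counts in WT and 23 and 27 in HSF1-pLVX libraries, at least 7.08-fold higher when WT is set at 3 counts per library (adjusted p = 6.64e-09). Of the 76-base windows of S100A7, 3.65% also occur in another gene.

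S100P lies on chromosome 4 (hg38, chr4:6693069-6697170), apart from the main cluster, and encodes a protein that binds ezrin and the receptor RAGE. It was at 2.88 and 2.15 CPM in WT and at 44.2 and 33.9 CPM in HSF1-pLVX libraries. The log2 fold change was 3.96 (SE 0.159, adjusted p = 2.94e-131), or 15.5-fold. S100PBP, on chromosome 1 outside the cluster, was at 16.2 and 15.7 CPM in WT and at 30.2 and 28.9 CPM in HSF1-pLVX libraries, a log2 fold change of 0.89 (SE 0.123, adjusted p = 3.01e-12). The gene for the binding protein thus rose 1.85-fold.

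S100A2 and S100A14 rose from a higher starting level. S100A2 encodes a nuclear S100 protein of basal epithelial cells and is known as a target of p53 family factors. It was at 414 and 401 CPM in WT and at 2431 and 2804 CPM in HSF1-pLVX libraries (log2 fold change 2.68, SE 0.184, adjusted p = 2.43e-46). S100A14, an epithelial S100 gene, was at 252 and 253 CPM in WT and at 1469 and 1703 CPM in HSF1-pLVX libraries (log2 fold change 2.65, SE 0.165, adjusted p = 3.44e-56). For both genes the WT libraries lay within a few percent of each other and the HSF1-pLVX libraries lay over 5 times higher.

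S100A8 and S100A9 encode the subunits of calprotectin, a metal-binding heterodimer abundant in neutrophils and in stressed keratinocytes. S100A8 was at 18.9 and 17.3 CPM in WT and at 85.9 and 127 CPM in HSF1-pLVX libraries (log2 fold change 2.53, SE 0.112, adjusted p = 1.17e-108). S100A9 was at 208 and 178 CPM in WT and at 413 and 542 CPM in HSF1-pLVX libraries (log2 fold change 1.30, SE 0.128, adjusted p = 3.81e-23). Both subunits rose, S100A8 by 5.76-fold and S100A9 by 2.45-fold. Scaled per exon length, S100A9 was 19.2 and 17.9 times the level of S100A8 in WT libraries and 8.39 and 7.46 times in HSF1-pLVX libraries. The neutrophil gene FCGR3B and the leukocyte gene PTPRC were at 0 in all 4 libraries, while CD14 and ITGAM were higher in HSF1-pLVX cells as given above, and their part in the S100A8 and S100A9 values was not tested.

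Smaller rises were seen in S100A3, S100A4 and S100A1. S100A3, known from the hair cuticle, was at 4.53 and 4.74 CPM in WT and at 15.3 and 16.1 CPM in HSF1-pLVX libraries (log2 fold change 1.76, SE 0.169, adjusted p = 3.43e-24). S100A4, which binds non-muscle myosin and is linked to cell motility, was at 8.90 and 8.13 CPM in WT and at 13.5 and 12.8 CPM in HSF1-pLVX libraries (log2 fold change 0.62, SE 0.157, adjusted p = 1.58e-04). S100A1, a gene of heart and skeletal muscle, was at 1.23 and 1.56 CPM in WT and at 2.55 and 3.27 CPM in HSF1-pLVX libraries (log2 fold change 1.06, SE 0.302, adjusted p = 9.63e-04). The call of S100A1 was lost with DESeq2 (adjusted p = 0.112) and without HSF1-pLVX replicate 2 (adjusted p = 0.0605).

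The S100 genes that fell were S100A10, S100A11, S100A16 and S100A13, and their changes were under 2-fold. S100A10, which forms a heterotetramer with annexin A2 at the plasma membrane, was at 945 and 994 CPM in WT and at 522 and 509 CPM in HSF1-pLVX libraries (log2 fold change -0.91, SE 0.148, adjusted p = 3.42e-09). S100A11, a partner of annexin A1, was at 1062 and 1093 CPM in WT and at 722 and 782 CPM in HSF1-pLVX libraries (log2 fold change -0.52, SE 0.155, adjusted p = 0.00156). For both genes the lower WT library was above the higher HSF1-pLVX library. S100A16 was at 590.3 and 575 CPM in WT and at 446 and 496 CPM in HSF1-pLVX libraries (log2 fold change -0.31, SE 0.137, adjusted p = 0.0370). S100A13, involved in the release of FGF1, was at 45.6 and 44.4 CPM in WT and at 35.9 and 37.5 CPM in HSF1-pLVX libraries (log2 fold change -0.30, SE 0.107, adjusted p = 0.0102).

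The calls of S100A16 and S100A13 were the least firm among the S100 genes. Both were lost when the test was against a 1.2-fold change (adjusted p = 0.243 and 0.253) and with scaling by library size only (adjusted p = 0.0510 and 0.0713), and both were lost without HSF1-pLVX replicate 1 (adjusted p = 0.108 and 0.0562). S100A16 was also lost without WT replicate 1 (adjusted p = 0.0530), and S100A13 without HSF1-pLVX replicate 2 (adjusted p = 0.0533) and with DESeq2 (adjusted p = 0.135). In addition, 33.5% of the exon bases of S100A13 and 18.3% of those of S100A1 overlap another gene, in part each other on opposite strands, and the strand setting of the counting is not stated, so reads over those bases cannot be assigned.

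S100A6, which encodes calcyclin, was among the most abundant members and was not called. It was at 1258 and 1202 CPM in WT and at 1164 and 1457 CPM in HSF1-pLVX libraries, and the 2 variants overlapped (log2 fold change 0.08, SE 0.166, adjusted p = 0.681).

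**Figure D2:**
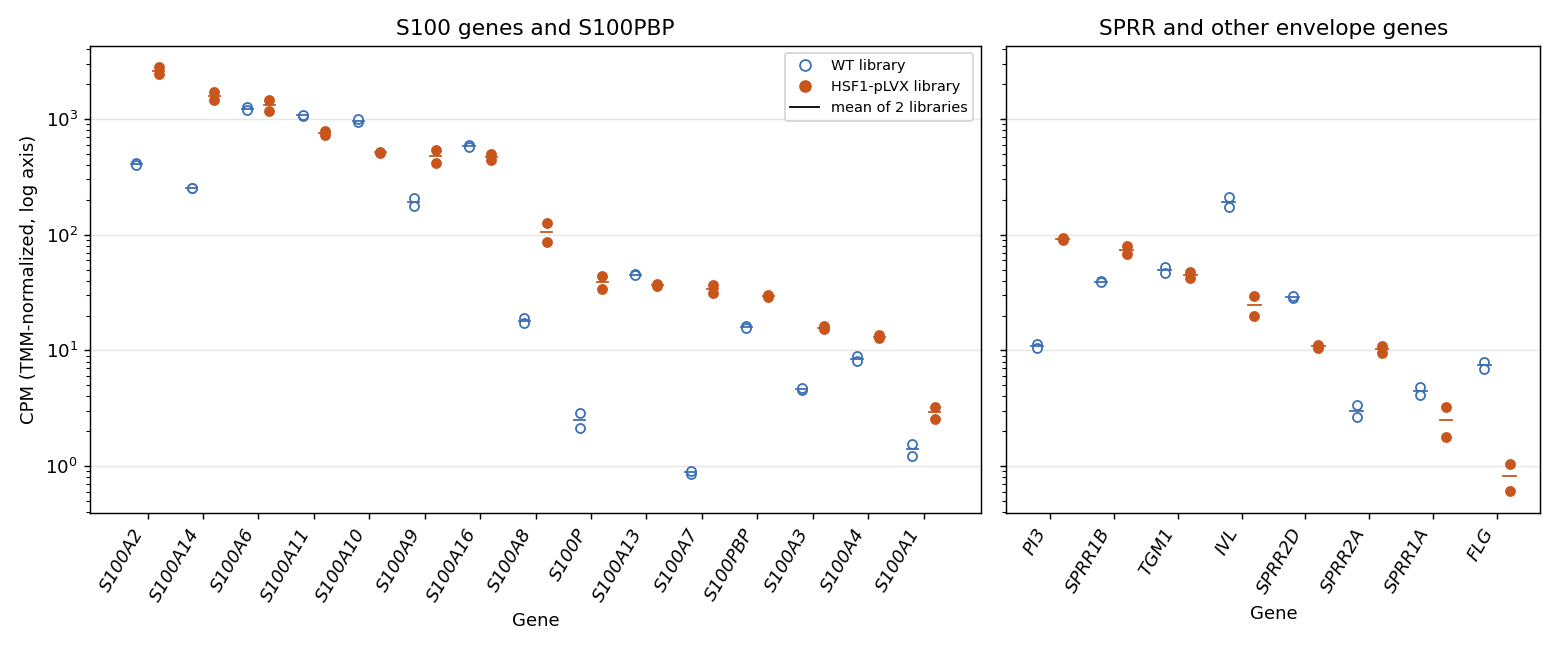
CPM on a log axis (y axis) in each WT library (open circles) and HSF1-pLVX library (filled circles), with the mean of 2 libraries as a line, for the 23 members with at least 50 counts in each library of the higher variant. For S100A7 and IVL the WT and HSF1-pLVX libraries lie far apart, in opposite directions, and for S100A6 and TGM1 they overlap.

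The composition of S100 message differed between the variants. The 20 S100 genes took 0.463 and 0.475% of all counts in WT and 0.768 and 0.857% in HSF1-pLVX libraries, and their summed level was 4795 ± 26.3 CPM in WT and 7979 ± 824 CPM in HSF1-pLVX cells (SD, n = 2), a ratio of 1.66. Scaled per exon length to a common total (a TPM-like value), the ratio was 1.42. S100A2 and S100A14 together held 9.83 and 9.77% of the TPM-like S100 sum in WT libraries and 41.5 and 41.1% in HSF1-pLVX libraries. S100A6, S100A10, S100A11 and S100A16 together held 81.3 and 82.4% in WT and 44 and 43% in HSF1-pLVX libraries. Without S100A2 and S100A14, the S100 sum was 4147 and 4123 CPM in WT and 3496 and 4055 CPM in HSF1-pLVX libraries, a ratio of 0.913. On the TPM-like scale, mean S100A2 moved from rank 109 to rank 19 among all genes and S100A14 from rank 157 to rank 28. S100A11, at a TPM-like mean of 4953, was above S100A6, at 3957, in WT cells. In HSF1-pLVX cells S100A2 was highest, at 4906, followed by S100A6 at 3957 and S100A14 at 3647.

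**Figure D3:**
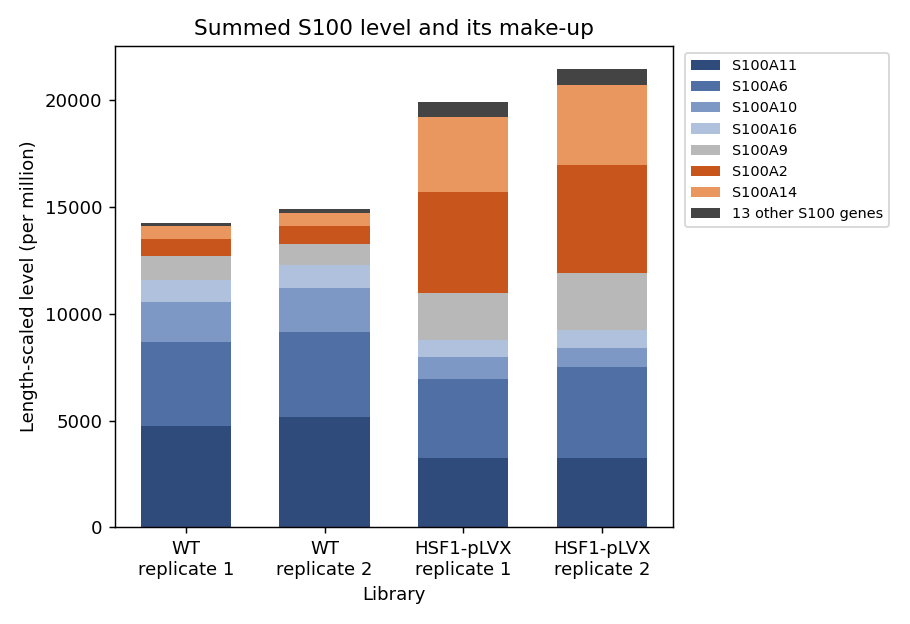
Summed TPM-like level of the S100 genes (y axis) in each of the 4 libraries (x axis), stacked by gene. S100A2 and S100A14 together make up 9.83 and 9.77% of the WT bars and 41.5 and 41.1% of the HSF1-pLVX bars.

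Among the envelope genes outside the families, the involucrin and filaggrin genes fell and the elafin gene rose. IVL, encoding involucrin, an early cross-linked scaffold of the envelope, was at 174 and 211 CPM in WT and at 29.6 and 19.9 CPM in HSF1-pLVX libraries (log2 fold change -2.97, SE 0.116, adjusted p = 1.41e-138). FLG, encoding filaggrin, which aggregates keratin filaments, held 150 and 128 counts in WT and 26 and 12 in HSF1-pLVX libraries (log2 fold change -3.16, SE 0.268, adjusted p = 6.40e-31). IVL was thus 7.81-fold and FLG 8.95-fold lower. FLG shares 5.52% of its exon bases with FLG-AS1 on the opposite strand, a gene with 5 and 5 counts in WT and 22 and 12 in HSF1-pLVX libraries. PI3, on chromosome 20, encodes elafin, an elastase inhibitor that is also a transglutaminase substrate. It was at 11.3 and 10.5 CPM in WT and at 92.9 and 89.8 CPM in HSF1-pLVX libraries (log2 fold change 3.06, SE 0.118, adjusted p = 1.43e-143), or 8.36-fold higher.

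TGM1, the membrane-bound transglutaminase that cross-links the envelope, was not called. Its level was 52.5 and 46.3 CPM in WT and 42.1 and 47.4 CPM in HSF1-pLVX libraries (log2 fold change -0.14, SE 0.105, adjusted p = 0.220), and the 2 variants overlapped. CNFN, encoding cornifelin, held 52 and 31 counts in WT and 16 and 25 in HSF1-pLVX libraries (log2 fold change -1.26, adjusted p = 5.77e-04). The CNFN call was lost with DESeq2 (adjusted p = 0.120), without WT replicate 1 (log2 fold change -0.83, adjusted p = 0.0595) and without HSF1-pLVX replicate 1 (log2 fold change -0.82, adjusted p = 0.0909). LOR was at 0 counts in all 4 libraries, and KRTDAP had no more than 3 counts in any library.

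The SPRR genes encode small cross-bridging proteins of the envelope, and paralogs moved apart. SPRR1B was at 39.4 and 38.9 CPM in WT and at 67.9 and 79.9 CPM in HSF1-pLVX libraries (log2 fold change 0.91, SE 0.104, adjusted p = 1.53e-17). Its paralog SPRR1A was at 4.85 and 4.09 CPM in WT and at 1.79 and 3.22 CPM in HSF1-pLVX libraries (log2 fold change -0.87, SE 0.243, adjusted p = 6.76e-04). The SPRR1A call was lost with DESeq2 (adjusted p = 0.106) and without HSF1-pLVX replicate 1 (log2 fold change -0.47, adjusted p = 0.164), and the gene model counted for it has only 270 bases. SPRR2D was at 28.6 and 29.3 CPM in WT and at 10.5 and 11.2 CPM in HSF1-pLVX libraries (log2 fold change -1.42, SE 0.130, adjusted p = 1.31e-26). SPRR2A was at 3.36 and 2.64 CPM in WT and at 10.99 and 9.46 CPM in HSF1-pLVX libraries (log2 fold change 1.77, SE 0.198, adjusted p = 3.55e-18). The WT and HSF1-pLVX libraries did not overlap for any of these 4 genes.

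The remaining tested SPRR genes were low. SPRR3 held 38 and 29 counts in WT and 12 and 8 in HSF1-pLVX libraries (log2 fold change -2.01, adjusted p = 3.90e-06). SPRR2E held 6 and 4 counts in WT and 20 and 17 in HSF1-pLVX libraries (3.03-fold higher, adjusted p = 0.00516), a call lost with DESeq2 (adjusted p = 0.229). SPRR2G held 15 and 20 counts in WT and 5 and 0 in HSF1-pLVX libraries (log2 fold change -3.02, adjusted p = 2.40e-06), and its fitted value was -7.17 without HSF1-pLVX replicate 1. The SPRR2 paralogs are near-identical in part: 24.9% of the 76-base windows of SPRR2A, 16.5% of those of SPRR2E and 8.39% of those of SPRR2D occur in another gene, and how the counting treated reads mapping to several places is not stated, so their single values are uncertain. The summed SPRR2 level was 33.2 and 33.3 CPM in WT and 22.7 and 21.7 CPM in HSF1-pLVX libraries, a ratio of 0.668. The summed level of all 10 SPRR genes was 79.6 and 77.8 CPM in WT and 92.8 and 105 CPM in HSF1-pLVX libraries, a ratio of 1.26.

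The LCE genes, which encode late envelope proteins of the outer epidermis, were close to absent. Of the 18, 9 had 0 counts in all libraries, 16 were not tested, and LCE1C and LCE1E were. LCE1C held 5 and 1 counts in WT and 30 and 27 in HSF1-pLVX libraries (log2 fold change 2.94, adjusted p = 3.30e-07), with a fitted value of 4.44 without WT replicate 1. LCE1E held 4 and 7 counts in WT and 19 and 12 in HSF1-pLVX libraries (log2 fold change 1.21, adjusted p = 0.0406), a call lost in 5 alternatives that used all libraries (with DESeq2, adjusted p = 0.409) and in each leave-one-out fit except that without WT replicate 2. Among the LCE genes not tested, LCE1B held 2 and 1 counts in WT and 13 and 10 in HSF1-pLVX libraries, at least 3.18-fold higher when WT is set at 3 counts per library, and no other had more than 5 counts in a library. LCE1B was called higher when genes with at least 10 counts in 2 libraries were kept (log2 fold change 2.57, SE 0.741, adjusted p = 0.00111) and with no filter on low counts (adjusted p = 0.0129). Of the 76-base windows of LCE1C, LCE1E and LCE1B, 9.05%, 3.49% and 2.45% occur in another LCE gene. How the counting treated such reads is not stated, so these 3 genes may not be fully separate.

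For 6 low members the fold change was much smaller on the authors' normalized log2-like scale, which compresses low counts. The difference there was 1.43 for LCE1C, 0.55 for LCE1E, 1.77 for S100A7A and 0.75 for SPRR2E. It was -1.20 for SPRR3 and -1.50 for SPRR2G, so the direction of each was the same on both scales.

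In all, 26 members were not tested, 11 of them with 0 counts in all 4 libraries (LOR, S100Z and 9 LCE genes). The other 15 had at most 13 counts in a library. S100A12, a neutrophil gene, held 4 and 3 counts in WT and 9 and 6 in HSF1-pLVX libraries, and S100A5 held 6 and 3 against 8 and 7. S100B, a marker of glia and melanocytes, held 1 count in each WT library and 0 in each HSF1-pLVX library. SPRR4, SPRR2F, SPRR2B and S100G each held between 0 and 5 counts in every library. With no filter on low counts, LCE1B was called among these 15 members, and the other 14 had adjusted p-values of 0.213 or more, so a difference was not detectable for them at this depth.

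Higher and lower members were interspersed along chromosome 1. The members between S100A10 and S100A1 (hg38, chr1:151982915-153632039) span 1.649 Mb. Of the 47 members on 1q21, 25 were tested, with 14 called higher and 10 lower, and of the 9 members elsewhere 5 were tested, with 3 called higher and 1 lower. From the S100A10 end, S100A10, S100A11 and FLG were lower, LCE1E and LCE1C higher and IVL lower. Within the SPRR cluster 3 tested genes were higher and 4 lower, in mixed order. S100A9, S100A8, S100A7A and S100A7, consecutive among the tested members, were all higher, and after S100A6, which was not called, S100A4, S100A3 and S100A2 were higher. At the far end S100A16 and S100A13 were lower while S100A14, which lies between them, and S100A1 were higher. Of the 40 other genes of the interval 10 were tested, with 3 called higher and 3 lower. Beside these counts, 32.5% of all tested genes were called higher and 32.7% lower, or 65.1% in either direction. From these 10 interval genes CRCT1 and PGLYRP4 are given, picked by no rule set beforehand. CRCT1 fell from 171 and 206 counts in WT to 1 and 0 in HSF1-pLVX libraries, at least 74.7-fold lower against 3 counts per library. PGLYRP4, which encodes a peptidoglycan recognition protein, rose by a log2 fold change of 2.17 (SE 0.198).

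**Figure D4:**
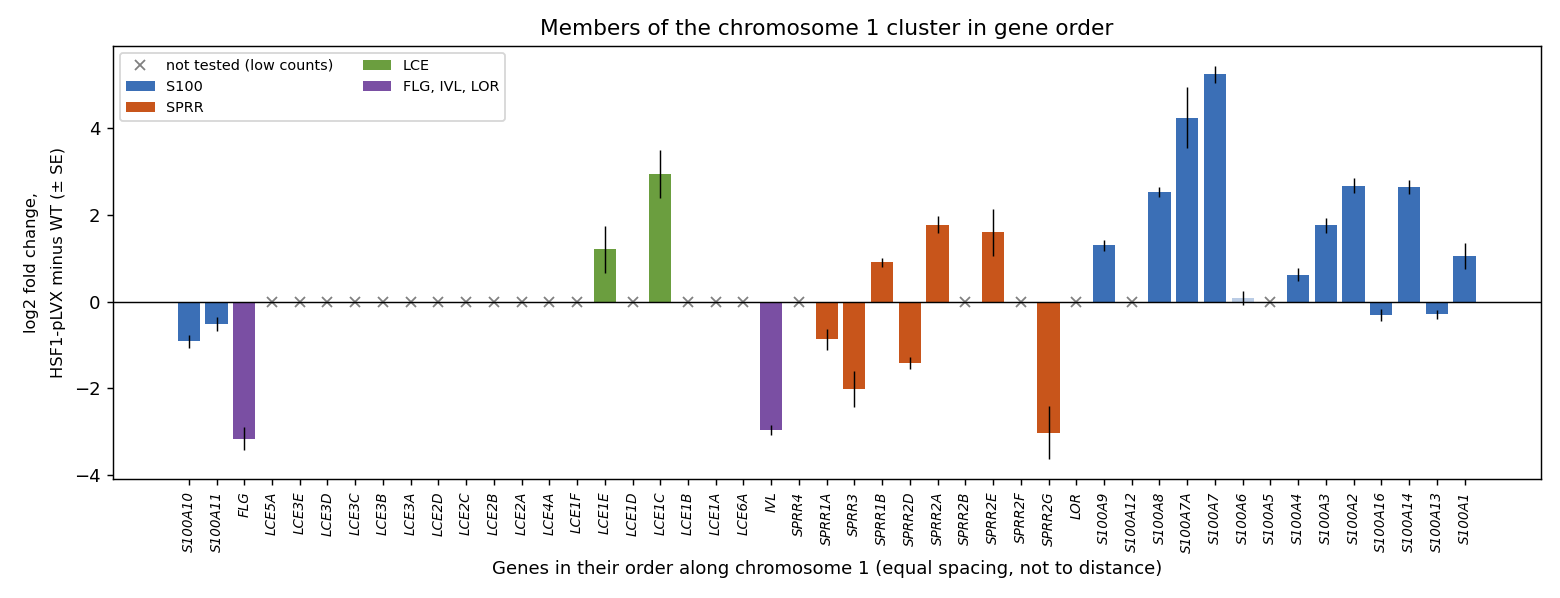
Log2 fold change (HSF1-pLVX minus WT, bars with standard error) for the members of the chromosome 1 cluster in gene order, at equal spacing, with crosses for members not tested and a pale bar for S100A6, which was not called. The tested genes from S100A9 to S100A7 lie above 0 together, while those from S100A16 to S100A1 alternate about 0.

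The sequences just before the transcription start were searched for the letters of factors known to act on envelope genes or heat shock genes. AP-1 sites, read by JUN and FOS proteins, are known from involucrin and SPRR promoters. RefSeq promoters (GRCh38.p14) were matched for 50 of the 56 members, each covering 250 bases before and 50 after the start site. Only 1 start site per gene was searched, and it need not be the one used in these cells. The windows of S100A2, S100A14, S100P, S100PBP and several other members lie inside the counted gene. Those of SPRR1A, S100A13 and some others lie apart from it. The AP-1 letters TGANTCA, searched on both strands, were in 14 of the 50 windows (28%) and in 7.76% of the 27305 promoters of the table. They were in 5 of 15 members called higher with a promoter and in 5 of 10 called lower. N stands for any base, whereas the stricter AP-1 letters have C or G there. FLG and SPRR2G, both called lower, and S100A12, not tested, matched only as TGAATCA, which the stricter letters leave out. The heat shock element core GAANNTTC was in 2 of the 50 windows (4.0%) and in 6.87% of all promoters, and in no window of a called member. These letters read the same on both strands, so the other order of the repeat, with TTC before GAA, was not counted. That order is present in the window of S100P, called higher. The absence from called members therefore holds for the searched order only. The Grainyhead-like letters AACCNGTT were in 3 windows (6.0%) and in 1.73% of all promoters. A match describes these letters only and is no evidence of binding.

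The 250 bases before the start site are printed below for 6 called members that hold the AP-1 letters, with the match in capitals. IVL, FLG and SPRR1A were lower, and SPRR1B, SPRR2A and S100A2 were higher. The matches begin 123 bases before the start site in IVL, 79 in FLG, 108 in SPRR1A, 141 and 111 in SPRR1B, 197 in SPRR2A and 52 in S100A2. All are written 5′ to 3′ on the strand of the gene.
IVL, chr1:152908296-152908545, plus strand: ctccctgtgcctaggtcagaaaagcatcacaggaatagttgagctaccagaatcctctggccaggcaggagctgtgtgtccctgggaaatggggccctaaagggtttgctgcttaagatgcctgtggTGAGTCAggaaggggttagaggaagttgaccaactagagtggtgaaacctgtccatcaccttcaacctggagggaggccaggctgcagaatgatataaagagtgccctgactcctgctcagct
FLG, chr1:152325240-152325489, minus strand: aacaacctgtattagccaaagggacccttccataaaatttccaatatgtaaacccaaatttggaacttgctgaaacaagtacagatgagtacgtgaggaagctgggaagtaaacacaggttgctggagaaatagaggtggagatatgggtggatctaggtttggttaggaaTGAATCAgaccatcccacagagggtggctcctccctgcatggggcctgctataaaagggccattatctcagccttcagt
SPRR1A, chr1:152983831-152984080, plus strand: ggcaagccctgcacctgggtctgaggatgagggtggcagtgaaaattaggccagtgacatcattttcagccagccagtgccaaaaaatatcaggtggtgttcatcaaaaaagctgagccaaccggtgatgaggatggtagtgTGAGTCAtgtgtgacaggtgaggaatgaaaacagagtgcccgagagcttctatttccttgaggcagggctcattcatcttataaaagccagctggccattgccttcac
SPRR1B, chr1:153030953-153031202, plus strand: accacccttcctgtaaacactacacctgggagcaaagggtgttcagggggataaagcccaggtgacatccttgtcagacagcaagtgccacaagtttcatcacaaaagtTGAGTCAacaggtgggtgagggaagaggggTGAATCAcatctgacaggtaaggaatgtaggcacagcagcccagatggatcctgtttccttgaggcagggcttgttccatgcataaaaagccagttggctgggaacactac
SPRR2A, chr1:153057513-153057762, minus strand: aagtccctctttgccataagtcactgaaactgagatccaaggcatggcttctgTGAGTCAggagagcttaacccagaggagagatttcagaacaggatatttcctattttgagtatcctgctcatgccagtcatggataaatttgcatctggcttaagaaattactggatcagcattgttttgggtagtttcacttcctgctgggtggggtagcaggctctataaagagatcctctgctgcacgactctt
S100A2, chr1:153565845-153566094, minus strand: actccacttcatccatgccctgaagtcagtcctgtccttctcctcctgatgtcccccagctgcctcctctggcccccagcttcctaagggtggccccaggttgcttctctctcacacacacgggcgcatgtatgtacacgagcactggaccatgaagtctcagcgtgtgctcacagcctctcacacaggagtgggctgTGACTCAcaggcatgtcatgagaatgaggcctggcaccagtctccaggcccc

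The paralogs SPRR1A and SPRR1B, with SPRR3 between them, both hold AP-1 letters, and their fitted changes were -0.87 and 0.91. The SPRR1A call was lost with DESeq2 and without HSF1-pLVX replicate 1, and its window lies apart from the counted gene. The windows of S100A7 and S100A14 gave no AP-1 match, and that of S100A14 lies inside the counted gene.

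Another 6 lists of genes of the pathway were counted to set the members beside other genes of terminal differentiation. Among 27 further envelope and filament-aggregating genes, 15 were tested, with 3 called higher and 10 lower (9 without the replicate block, 7 with DESeq2), and a median log2 fold change of -0.52. EVPL, which encodes envoplakin, and SCEL, which encodes sciellin, fell (log2 fold changes -1.19, SE 0.111, and -3.03, SE 0.128), while CSTA, which encodes the protease inhibitor cystatin A, and SBSN rose (3.14, SE 0.121, and 2.31, SE 0.376). PRR9, a gene of the same list with fewer counts, singled out after its values were seen, held 30 and 38 counts in WT and 0 in both HSF1-pLVX libraries, at least 13.5-fold lower against 3 counts per library, a call lost with DESeq2 (adjusted p = 0.102). Among 30 genes for cross-linking, proteolysis and barrier lipids, 19 were tested, with 3 called higher and 14 lower and a median of -1.48. TGM2, KLK5, CST6 and SULT2B1 fell with log2 fold changes between -3.21 and -3.05. Among 31 transcription regulators of epidermal differentiation, 27 were tested, with 8 called higher and 12 lower. TP63, the master regulator of stratified epithelia, rose (3.48, SE 0.120), as did CEBPD (2.28, SE 0.110), while OVOL1 fell (-3.08, SE 0.150).

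The genes on the receiving side of S100 proteins did not share a direction. Among 26 receptors and binding partners, 22 were tested, with 6 called higher and 8 lower and a median of -0.01. ANXA2, the partner of S100A10, was at 5206 and 5154 CPM in WT and at 2147 and 1947 CPM in HSF1-pLVX libraries (log2 fold change -1.34, SE 0.216, adjusted p = 2.07e-09), so both genes of that complex fell. TLR4, a receptor for calprotectin, fell (-2.53, SE 0.121), and MDM2, which binds several S100 proteins, rose (1.11, SE 0.130). AGER, which encodes RAGE, was at or near 0 in every library and was not tested. Among 31 stress, antimicrobial and wound-response genes of keratinocytes, 26 were tested, with 14 called higher and 10 lower. IL1B (3.79, SE 0.126) and CCL20 (3.21, SE 0.203) rose, and IL36RN (-4.00, SE 0.336) and SERPINB2 (-4.81, SE 0.168) fell. All 15 basal epithelial genes were tested, with 9 called higher and 5 lower. The basal keratins went apart, KRT14 falling (-3.55, SE 0.136) and KRT15 rising (2.28, SE 0.197), and NGFR rose (7.02, SE 0.164). Against the 32.5% of genes called higher and 32.7% called lower, the list of enzymes had the largest share called lower of the 6 lists.

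**Figure D5:**
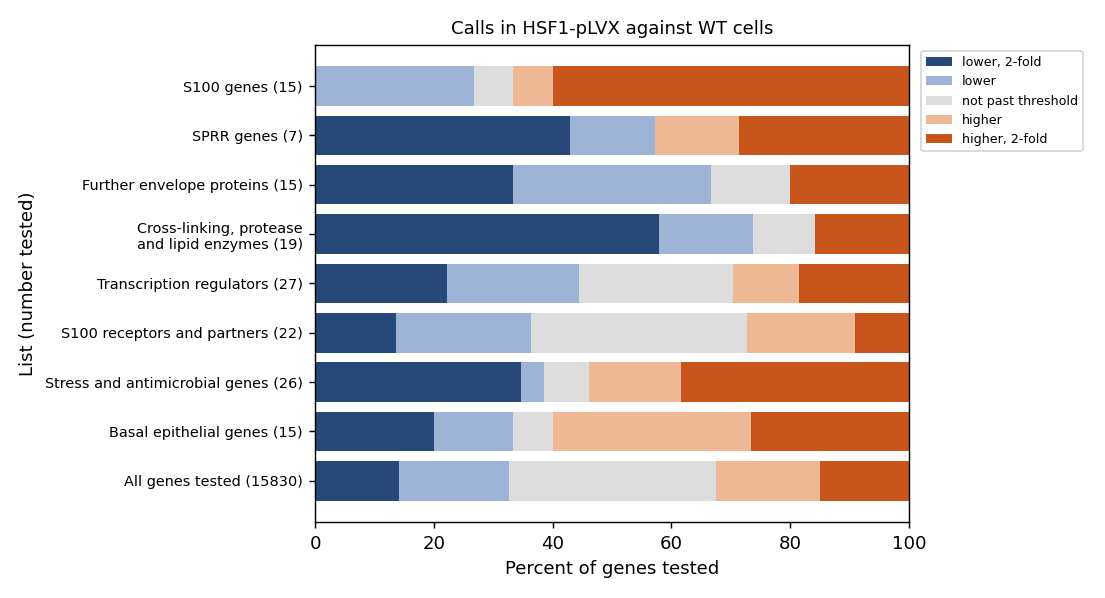
Percent of tested genes (x axis) called lower (blue), not called (grey) and called higher (orange) in HSF1-pLVX cells, dark where the change was 2-fold or more, for the S100 and SPRR genes, the 6 further lists and all 15830 tested genes. Of the 19 tested enzyme genes 14 were lower and 3 higher, against 32.7 and 32.5% of all genes.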

How the data were processed

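RNA-seq was performed on total RNA depleted of ribosomal RNA, with paired reads of 76 bases. The authors aligned reads to hg38 with HISAT2 (2.0.5), processed them with SAMtools (1.13) and deposited raw counts per gene of GENCODE release 26 made with featureCounts (1.6.5), tools per the submitters' processing notes. They also deposited log2-like values normalized with DESeq2 (1.32.0), used here for the members' symbols and as an alternative scale for their fold changes. Strand and multi-mapping settings were not given in the sources used here.

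The deposited counts went into edgeR 4.0.16 (R 4.3.3), with TMM factors, the filterByExpr filter and its quasi-likelihood test. Replicate number entered as a block. The study required its signal ratio in each biological replicate, which was read here as pairing same-numbered libraries, although it does not state that. Benjamini-Hochberg adjustment covered 15830 genes. The SE is the log2 fold change divided by the root of the F statistic. With the block, 1 residual degree of freedom remained per gene and the estimated prior degrees of freedom were infinite (11.9 without the block), so the smallest p-values rest on a spread shared across genes. The deviations of same-numbered libraries correlated at 0.000143 over all tested genes and at -0.113 over 9672 genes above 8 CPM, and the labels do not state that a number marks a shared culture. An exact permutation of 2 libraries against 2 cannot go below p = 0.333. TPM-like values are counts per exon base scaled to a common total. A variant with 3 counts or fewer in both libraries was set at 3 counts per library, for counting error only.

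Members and lists were chosen with earlier results of these data known. Members with at least 50 counts in each library of the higher variant are given with full values, others by fewer values or counts, and up to 4 called genes with the largest changes per further list, among those with at least 50 counts in each library of the higher variant and the same direction in both replicate pairs. Alternatives were other scaling, the authors' normalized values, filters, tests (limma 3.58.1, DESeq2 1.42.0), the block, a 1.2-fold threshold and each library left out, the last fitted without the block and with the lone library assumed to vary like the other variant. The 2 libraries of each variant differed by more than sampling noise (chi-square per degree of freedom 4.39 in WT and 5.30 in HSF1-pLVX). SOD2 could not be matched to an identifier, and some genes that this rule names are not reported here.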

Additional observations from a re-analysis of the deposited data

How the results depend on the processing

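No alternative reversed a called member; S100A6, not called, lay between -0.07 and 0.24 with 1 library left out. Of the 28 called members, 21 kept their call in every alternative with a test, and the 7 that lost it at least once were LCE1E, SPRR1A, SPRR2E, S100A16, S100A13, S100A1 and CNFN. Members called higher numbered 17, between 15 and 17 with 1 library left out, 14 with DESeq2, 18 with at least 10 counts in 2 libraries (LCE1B being tested and called there) and 11 without the SPRR2, LCE and S100A7 genes, an alternative that holds fewer genes. Members called lower numbered 11, between 7 and 11 with 1 library left out and 8 with DESeq2. Over all 15830 tested genes DESeq2 called 3318 higher and 3737 lower, against 5138 and 5171 with edgeR. The members' median of 0.90 became 0.96 with library size only and lay between 0.84 and 0.94 with 1 library left out. The summed S100 ratio was 1.66 in CPM and 1.42 TPM-like, and the cause of these shifts was not tested. On the authors' normalized values, 15 of 30 members moved by more than 1 SD between replicates and none called was reversed; S100A7 stood at 4.39 and FLG at -2.45. Without the replicate block the calls were 17 higher and 11 lower, and with the crossed replicate block, chosen after seeing the data, also 17 and 11, so pairing changed no count of members. With 2 libraries per variant, and no empty-vector cells analysed here, spread is poorly known. The LCE genes and most SPRR2 genes are limited by depth.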
